A study of Mus musculus with 193 samples.

Results

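Piwi-interacting RNAs (piRNAs) and the proteins that make and use them were followed through 10 genes of the mouse male germ line: Piwil2, Piwil4, Tdrd1, Tdrd5, Tdrd9, Tdrkh, Mael, Mov10l1, Asz1 and Gtsf1. The genes were chosen by name as core PIWI, Tudor-domain and partner factors of the pathway. They are 10 of the 19557 gene rows in the expression table, and all 10 were present. The study profiled single cells of the testis, gated as positive for the Id4-eGFP reporter, which marks germ cells expressing Id4, a gene of spermatogonial stem cells. Of these cells, 69 were labelled Rhox10 Knockout at postnatal day 3 (KO P3), 53 were wild type at postnatal day 7 (WT P7), and 71 were wild type at postnatal day 3 (WT P3). Rhox10 is an X-linked homeobox gene, and cells of all 3 groups carried the reporter. The labels give neither strain, nor the number of animals, nor the part of Rhox10 that was removed.

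Germ cells use piRNAs to silence transposons. Long precursor transcripts are unwound and cut at the mitochondrial surface, the pieces are loaded into PIWI proteins, and the loaded complexes either slice transposon RNA in cytoplasmic granules (nuage) or guide DNA methylation of transposon promoters in the nucleus. In the mouse the nuclear arm works mainly in fetal and newborn prospermatogonia, the cells that give rise to spermatogonial stem cells. Tudor-domain proteins bind methylated arginines of PIWI proteins and hold the granules together.

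Values are deposited RPM, reads scaled to the total of each cell, and a level is the mean over cells of log2(RPM + 1). By their titles the samples fall into 7 sets marked with letters, whose meaning the labels do not give. KO P3 had sets A, B and C with 21, 12 and 36 cells, WT P7 had sets A and B with 12 and 41, and WT P3 had sets A and B with 16 and 55. Each deposited sample was 1 cell, and no animal was named, so each group counts as 1 sample and no p-value was computed. A group's value averages its sets with equal weight, and a difference is given with its range over all pairs of 1 set from each group (6 pairs where KO P3 is set against WT P3, and 4 where WT P7 is). A gene is called higher or lower where the difference was at least 0.5 and had the same sign in all pairs. Both comparisons use the same WT P3 cells.

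Several libraries stood apart. The number of reads on genes ran from 117385 to 1373776 per cell in KO P3, from 226903 to 820131 in WT P7 and from 25424 to 1201355 in WT P3. The germ cell gene Ddx4 or Dazl was above 1 RPM in every cell of all 3 groups. KO P3 set A had a mean level of 1.82 over 6 markers of undifferentiated spermatogonia, against 3.82 to 4.07 in the other 6 sets. Those markers did not all move together. Among them, Id4 differed from WT P3 by -1.67 (pairs -2.61 to -1.05) in KO P3 and by -1.32 (pairs -1.76 to -0.87) in WT P7. Zbtb16 differed by 0.15 (pairs -2.49 to 1.75) in KO P3 and by 2.28 (pairs 1.88 to 2.69) in WT P7. A Sertoli cell marker (Clu, Wt1 or Sox9) was above 10 RPM in 13 of 21, 0 of 12 and 3 of 36 cells of KO P3 sets A, B and C, in 0 of 53 WT P7 cells, and in 8 of 16 and 8 of 55 cells of WT P3 sets A and B. The 5 Sertoli markers summed to a mean of 116, 2.32 and 3.66 RPM in KO P3 sets A, B and C, 0 and 1.04 RPM in WT P7 sets A and B, and 11.9 and 29.4 RPM in sets A and B of WT P3. Rhox10 itself had levels of 2.48 ± 1.57, 2.62 ± 1.47 and 0.83 ± 1.09 in KO P3 sets A, B and C (SD between cells), against 1.78 ± 1.51 and 1.49 ± 1.11 in sets A and B of WT P3. It was not lower in KO P3 sets A and B than in WT P3, so the group is called by its label throughout. The spike-in RNA summed to a mean of 13908, 8721 and 9226 RPM in KO P3 sets A, B and C, 13715 and 8721 RPM in WT P7 sets A and B, and 12505 and 8211 RPM in sets A and B of WT P3, so the sets lettered A were alike in this respect.

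Promoter windows of 300 bases were read from RefSeq (GRCm38.p6) for the genes whose levels differ most below, to show the sequence at their starts. Of the 10 genes, 9 matched at least 1 window, 12 windows in all, and Piwil2 did not. In the sequences below, read 5′ to 3′ on the strand of the gene, capitals mark the letters of the E-box CACGTG, the CCAAT box CCAAT and the GC box GGGCGG on either strand.
Tdrd9 (chr12:111971309-111971608, plus strand): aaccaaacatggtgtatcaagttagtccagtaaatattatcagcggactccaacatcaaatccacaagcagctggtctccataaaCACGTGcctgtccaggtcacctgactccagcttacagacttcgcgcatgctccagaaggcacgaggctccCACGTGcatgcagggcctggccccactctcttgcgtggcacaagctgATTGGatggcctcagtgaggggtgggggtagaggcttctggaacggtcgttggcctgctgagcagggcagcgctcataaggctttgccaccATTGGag
Mael (chr1:166238695-166238994, minus strand): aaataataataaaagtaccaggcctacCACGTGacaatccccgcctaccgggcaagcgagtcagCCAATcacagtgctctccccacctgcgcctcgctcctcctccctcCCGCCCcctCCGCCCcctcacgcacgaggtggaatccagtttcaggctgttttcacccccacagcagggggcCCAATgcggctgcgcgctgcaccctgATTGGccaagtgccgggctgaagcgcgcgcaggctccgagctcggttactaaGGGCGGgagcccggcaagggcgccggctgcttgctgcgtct
Mov10l1 (chr15:88982744-88983043, plus strand): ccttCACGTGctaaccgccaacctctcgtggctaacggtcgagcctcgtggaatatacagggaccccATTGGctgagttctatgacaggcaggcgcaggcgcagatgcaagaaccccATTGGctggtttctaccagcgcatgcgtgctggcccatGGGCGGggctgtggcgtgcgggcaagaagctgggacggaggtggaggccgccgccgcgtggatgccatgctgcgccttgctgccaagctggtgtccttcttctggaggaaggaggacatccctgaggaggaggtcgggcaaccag
Tdrkh (chr3:94412994-94413293, plus strand): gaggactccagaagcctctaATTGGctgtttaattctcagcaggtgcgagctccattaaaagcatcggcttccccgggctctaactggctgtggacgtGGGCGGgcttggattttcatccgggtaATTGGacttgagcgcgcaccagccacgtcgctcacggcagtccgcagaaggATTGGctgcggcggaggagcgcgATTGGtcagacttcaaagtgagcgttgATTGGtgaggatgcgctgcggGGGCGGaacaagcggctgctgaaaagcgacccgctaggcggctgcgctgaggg
Piwil4 (chr9:14740623-14740922, minus strand): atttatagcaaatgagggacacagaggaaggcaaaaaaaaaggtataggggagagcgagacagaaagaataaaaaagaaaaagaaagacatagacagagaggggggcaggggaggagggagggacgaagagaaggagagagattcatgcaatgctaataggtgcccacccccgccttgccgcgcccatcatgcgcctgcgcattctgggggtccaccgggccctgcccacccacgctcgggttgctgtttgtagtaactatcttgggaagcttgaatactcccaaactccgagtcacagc
The E-box was in 5 of the 12 windows, which belong to Mael, Mov10l1, Tdrd1 and Tdrd9, and 7.15% of all 32851 windows held it. The Tdrd1 windows among the 5 overlap and hold the same E-box, so that site is counted more than once. By gene, the E-box was found for 4 of the 9 with a window. It began at position 28 of the Mael window, position 5 of the Mov10l1 window, and positions 86 and 156 of the Tdrd9 window, counted from 1 at the 5′ end. CCAAT was in the windows of Mael, Mov10l1, Tdrd9 and Tdrkh, against 37.4% of all windows, and Tdrkh had 5 copies. GGGCGG was in those of Asz1, Mael, Mov10l1 and Tdrkh, against 35.7% of all windows. The E2F-like letters GCGGGAA were found for Tdrd5 alone (4.60% of all windows), and the letters TGACGTCA in no window of these genes (1.79% of all windows). The Piwil4 window shown held none of the 5 motifs. Searches covered both strands, none of the marked matches overlap, and a match of letters is a description of the window, not a binding site.

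Per kilobase of exon, the only scale on which genes are compared with each other here, Mael RNA was the most abundant of the 10. Mael encodes Maelstrom, a nuage protein with an HMG box, and averaged 70.5 RPM per kb over the 7 sets (49.1 to 81.8 RPM per kb). Gtsf1, a zinc finger partner of PIWI proteins, averaged 21.3 RPM per kb (14.4 to 24.3), and Asz1, which anchors nuage to mitochondria, averaged 20.4 (17.5 to 25.3), so those neighbours in the order were not separated. Mov10l1, the helicase that handles piRNA precursors, followed at 13.9 RPM per kb (8.06 to 20.1) and Piwil2 at 8.88 (5.92 to 12.2). The Tudor-domain genes were lower, at 5.63 RPM per kb for Tdrd1 (3.65 to 8.31), 3.44 for Tdrkh (1.59 to 6.17), 2.84 for Tdrd9 (1.45 to 4.87) and 2.60 for Tdrd5 (1.5 to 3.95), and their ranges overlapped. Piwil4 was lowest at 0.983 RPM per kb (0.517 to 2.04). The 2 PIWI genes did not overlap in any set on this scale, with Piwil2 always above Piwil4.

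Piwil2 and Piwil4 encode the PIWI proteins that mouse germ cells use around birth. PIWIL2 (MILI) is cytoplasmic, slices transposon RNA and starts the production of secondary piRNAs, whereas PIWIL4 (MIWI2) enters the nucleus and guides DNA methylation. Piwil2 (chr14:70372477-70429383, minus strand, mm10) was detected in nearly every cell. Piwil2 ran from 0.587 to 168 RPM in cells labelled KO P3 (median 44.3 RPM), from 0 to 147 RPM in WT P7 cells (median 38.8 RPM) and from 0.746 to 106 RPM in WT P3 cells (median 27.9 RPM). Its 3 groups overlapped widely between cells, with the lowest median in WT P3. Piwil4 (chr9:14696230-14740733, minus strand) was detected in a part of the cells only. Piwil4 ran from 0 to 49.1 RPM in cells labelled KO P3 (median 2.18 RPM), from 0 to 20.4 RPM in WT P7 cells (median 0 RPM) and from 0 to 29.3 RPM in WT P3 cells (median 3.45 RPM). Most WT P7 cells had no read of it, and single cells of each group reached over 20 RPM.

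Tdrd1, Tdrd5, Tdrd9 and Tdrkh carry Tudor domains. TDRD1 is a scaffold that binds PIWIL2 in the granules between mitochondria. Tdrd1 ran from 0 to 187 RPM in cells labelled KO P3 (median 22.9 RPM), from 0.456 to 111 RPM in WT P7 cells (median 19.7 RPM) and from 2.50 to 89.9 RPM in WT P3 cells (median 21.9 RPM). WT P3 was the group in which no cell fell below 1 RPM. TDRD5, which has LOTUS domains as well, is needed for nuage assembly. Tdrd5 ran from 0 to 88.5 RPM in cells labelled KO P3 (median 10.8 RPM), from 0 to 69.0 RPM in WT P7 cells (median 11.1 RPM) and from 0 to 38.6 RPM in WT P3 cells (median 9.16 RPM). Cell medians of Tdrd5 were close together in all 3 groups. TDRD9 is an RNA helicase that works with PIWIL4. Tdrd9 ran from 0 to 77.5 RPM in cells labelled KO P3 (median 16.2 RPM), from 0 to 128 RPM in WT P7 cells (median 7.66 RPM) and from 0 to 39.4 RPM in WT P3 cells (median 6.59 RPM). The median was highest in cells labelled KO P3, and 1 WT P7 cell held the highest single value. TDRKH (also called TDRD2) sits in the outer mitochondrial membrane and brings PIWI proteins to the enzyme that trims piRNA 3′ ends. Tdrkh ran from 0 to 86.6 RPM in cells labelled KO P3 (median 13.7 RPM), from 0 to 158 RPM in WT P7 cells (median 29.1 RPM) and from 0 to 37.4 RPM in WT P3 cells (median 11.3 RPM). WT P7 cells had the highest median and WT P3 the lowest.

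Mael, Mov10l1, Asz1 and Gtsf1 encode partner proteins without Tudor domains. Mael ran from 1.17 to 277 RPM in cells labelled KO P3 (median 124 RPM), from 16.1 to 365 RPM in WT P7 cells (median 123 RPM) and from 18 to 166 RPM in WT P3 cells (median 76.4 RPM). It was above 1 RPM in every cell, and WT P3 had the lowest median. Mov10l1 ran from 0.759 to 208 RPM in cells labelled KO P3 (median 60.3 RPM), from 9.59 to 237 RPM in WT P7 cells (median 65.3 RPM) and from 3.65 to 82.3 RPM in WT P3 cells (median 33.7 RPM). Again WT P3 had the lowest median, while KO P3 and WT P7 were close to each other. Asz1 ran from 1.17 to 175 RPM in cells labelled KO P3 (median 60.0 RPM), from 0.832 to 159 RPM in WT P7 cells (median 48 RPM) and from 10.2 to 159 RPM in WT P3 cells (median 52.8 RPM). Gtsf1 ran from 0.587 to 85.1 RPM in cells labelled KO P3 (median 29.3 RPM), from 0.767 to 113 RPM in WT P7 cells (median 25.9 RPM) and from 1.18 to 64.5 RPM in WT P3 cells (median 17.2 RPM). Cell ranges of both overlapped between all groups, with the Gtsf1 median lowest in WT P3.

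**Figure D1:**
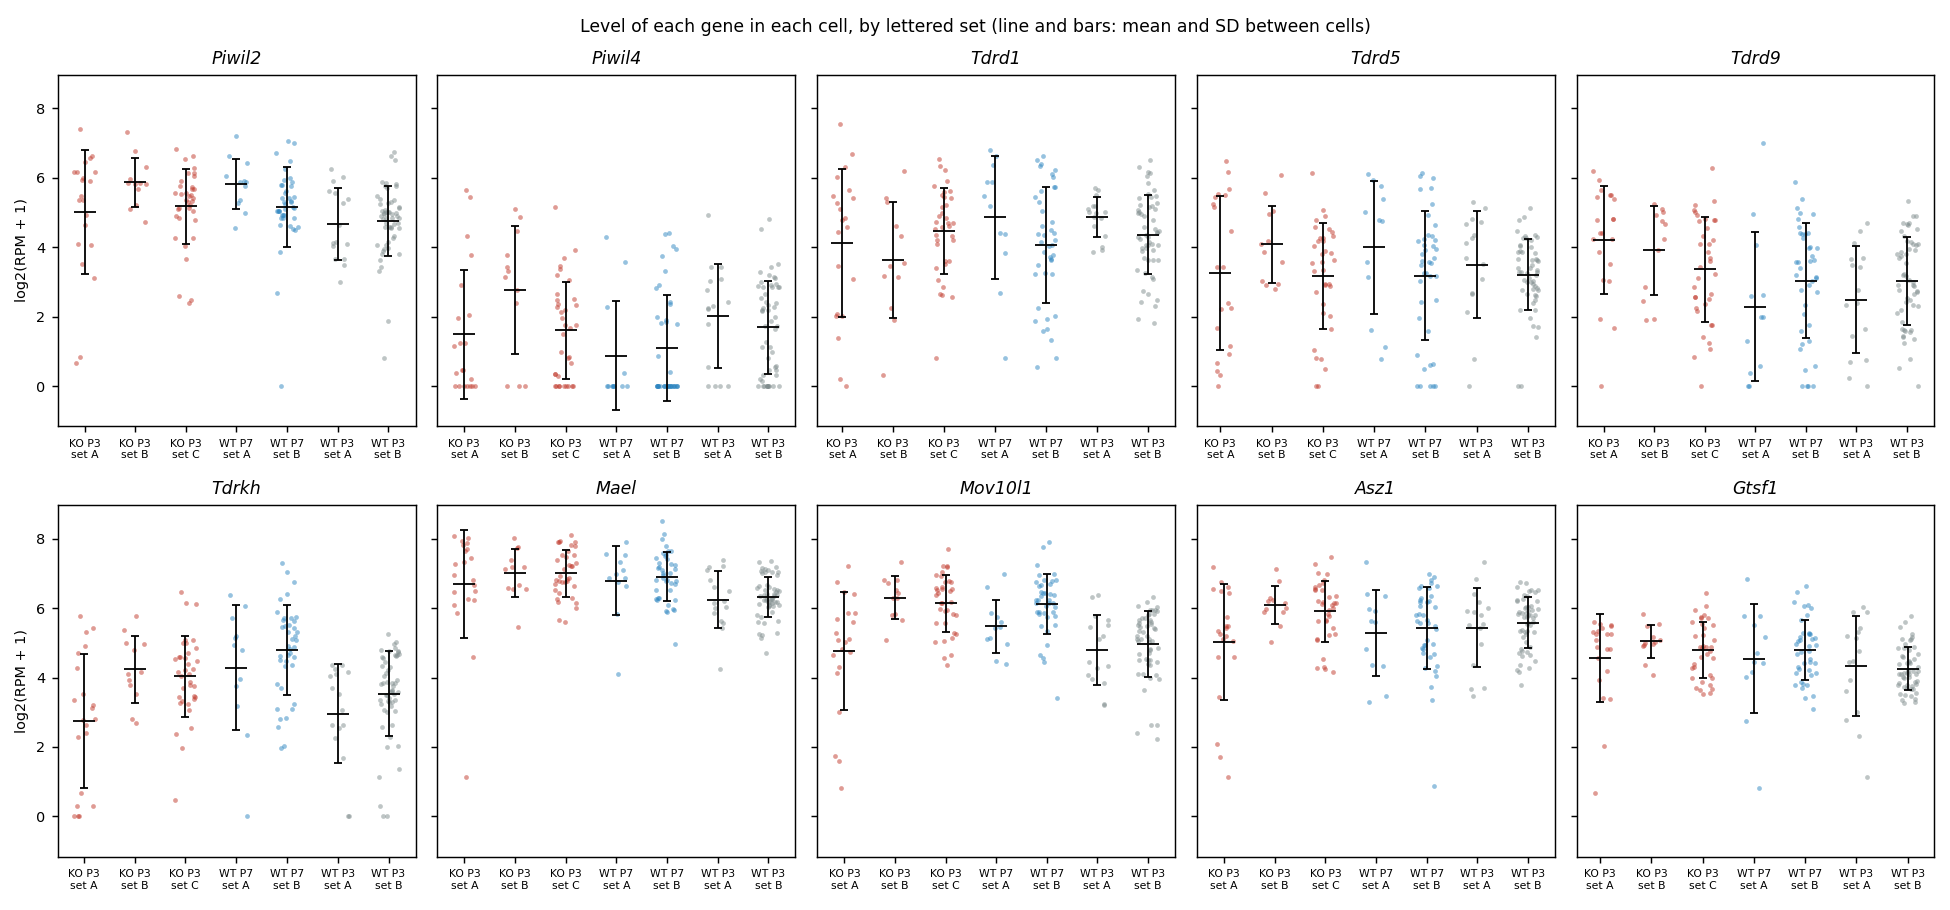
Level of each of the 10 genes in each cell as log2(RPM + 1), vertical axis, for the 7 lettered sets, with KO P3 in red, WT P7 in blue and WT P3 in grey. Points are cells, and the line and bars give the mean and SD between cells of a set. Mael lies highest with set means from 6.25 to 7.02, Piwil4 lies lowest, and in KO P3 set A single cells fall far below the rest for several genes.

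At postnatal day 3, on the deposited scale, cells labelled KO had more RNA of 4 of the 10 genes than WT P3 cells did, namely Tdrd9, Piwil2, Mael and Gtsf1, and none of the 10 was called lower. The comparison asks what differs at day 3 in germ cells labelled as lacking Rhox10, which the series' title presents as a factor in the founding of the stem cell pool. Over all 10147 genes measured in this comparison, 8.92% were called higher and 2.85% lower. The deposited table held a mean of 15.7% of a cell's total in cells labelled KO P3 and 12.7% in WT P3, and its part in the calls was not tested beyond the other scales given here. The median difference of the 10 genes was 0.47, beside 0.12 over all genes, and 9 of the 10 lay above 0. On a scale set by 2650 stably detected genes, Tdrd9 alone was called higher and Tdrd1 was called lower, with 4.96% of genes called higher and 6% lower. On that scale the medians were 0.31 for the 10 genes and 0.016 for all genes, and 7 of the 10 lay above 0. With cells thinned to 50000 reads on genes, none of the 10 was called higher and Tdrd1 was called lower, where 4.33% of genes were called higher and 8.53% lower. Piwil2, Mael and Gtsf1 stayed above WT P3 in all 6 pairs on those scales, at differences under 0.5. With thinned cells their lowest pairs were 0.008, 0.085 and 0.05, so the closest sets hardly differed there. Without the minimum size, 16.4% of genes lay above WT P3 in all 6 pairs and 5.78% below on the deposited scale, and 10.6% and 11.2% on that of stably detected genes. These shares were not computed for thinned cells.

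Tdrd9 differed most between these groups. Its level was 4.21 ± 1.56, 3.92 ± 1.28 and 3.37 ± 1.51 in KO P3 sets A, B and C (SD between cells), against 2.49 ± 1.55 and 3.02 ± 1.27 in sets A and B of WT P3. All 3 KO P3 sets lay above both WT P3 sets, and set A was highest. The difference was 1.08 (pairs 0.34 to 1.72), and mean RPM was 20.3 in cells labelled KO P3 and 9.13 in WT P3, a ratio of 2.22. On the scale of stably detected genes it was 0.95 (pairs 0.02 to 1.95), so the closest pair of sets hardly differed there. Between sets of the same letter the difference was 1.72 between the sets lettered A and 0.89 between those lettered B. Thinning cells to 50000 reads on genes left 66 of the 71 WT P3 cells and also scaled values to reads on genes. The difference was then 0.67, and KO P3 set C (2.93) fell below WT P3 set B (3.22), so the call did not hold there. At that depth 81.2% (69.9% to 89.6%) of cells labelled KO P3 and 83.3% (72.1% to 91.4%) of WT P3 cells had at least 1 read of Tdrd9 (exact 95% intervals). Without the cells that had a Sertoli marker above 10 RPM, Tdrd9 was still called higher on the deposited scale, but not on that of stably detected genes.

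Piwil2, which encodes the cytoplasmic PIWI protein, was also higher in the cells labelled KO. Levels were 5.02 ± 1.79, 5.87 ± 0.70 and 5.17 ± 1.07 in KO P3 sets A, B and C, against 4.68 ± 1.03 and 4.75 ± 1.01 in sets A and B of WT P3. The groups of sets did not overlap, and KO P3 set B stood above the others. The difference was 0.64 (pairs 0.27 to 1.19), with mean RPM of 53 in cells labelled KO P3 and 31.6 in WT P3, a ratio of 1.68. It was 0.34 between the sets lettered A and 1.12 between those lettered B. On the scale of stably detected genes it was 0.47 (pairs 0.04 to 0.91), under the size set for a call. Piwil4, at 1.49 ± 1.86, 2.77 ± 1.85 and 1.60 ± 1.41 in KO P3 sets A, B and C, against 2.02 ± 1.51 and 1.69 ± 1.34 in sets A and B of WT P3, had no shared direction. KO P3 set B was above both WT P3 sets and KO P3 sets A and C were below both, which gave 0.10 (pairs -0.53 to 1.08).

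Mael gave the narrowest range over pairs among the genes called. Its level was 6.70 ± 1.55, 7.02 ± 0.70 and 7.00 ± 0.67 in KO P3 sets A, B and C, against 6.25 ± 0.82 and 6.32 ± 0.59 in sets A and B of WT P3, and each KO P3 set lay above both WT P3 sets. The difference was 0.62 (pairs 0.38 to 0.77), with mean RPM of 141 in cells labelled KO P3 and 85.5 in WT P3, a ratio of 1.65. It was 0.46 between the sets lettered A and 0.70 between those lettered B. On the scale of stably detected genes it was 0.45 (pairs 0.28 to 0.65). In Gtsf1, too, each KO P3 set lay above both WT P3 sets, at a smaller size, with levels of 4.56 ± 1.28, 5.04 ± 0.48 and 4.80 ± 0.81 in KO P3 sets A, B and C, against 4.33 ± 1.43 and 4.26 ± 0.62 in sets A and B of WT P3. Its difference of 0.50 (pairs 0.23 to 0.78) just reached the size set for a call, and was 0.34 (pairs 0.16 to 0.44) on the other scale.

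The other 6 genes did not meet the rule. Mov10l1 came next to Tdrd9 in size of difference, at 0.85 (pairs -0.19 to 1.5), but the sets disagreed, with levels of 4.77 ± 1.71, 6.30 ± 0.62 and 6.14 ± 0.83 in KO P3 sets A, B and C, against 4.80 ± 1.01 and 4.96 ± 0.96 in sets A and B of WT P3. KO P3 set A lay slightly below both WT P3 sets, and sets B and C lay well above them. Tdrkh split in the same way, at 2.75 ± 1.93, 4.24 ± 0.97 and 4.04 ± 1.17 in KO P3 sets A, B and C, against 2.96 ± 1.42 and 3.53 ± 1.23 in sets A and B of WT P3, and its difference was 0.44 (pairs -0.77 to 1.28). Tdrd1 was the gene that pointed the other way, at -0.53 (pairs -1.22 to 0.12) and -0.75 and -0.72 between the sets lettered A and B, with levels of 4.11 ± 2.13, 3.64 ± 1.66 and 4.48 ± 1.24 in KO P3 sets A, B and C, against 4.86 ± 0.58 and 4.36 ± 1.14 in sets A and B of WT P3. On the scale of stably detected genes all 6 pairs of Tdrd1 were below 0, at -0.70 (pairs -1.47 to -0.15), while mean RPM was 28.4 in cells labelled KO P3 and 28.1 in WT P3, a ratio of 1.01. The SD between cells was larger in each KO P3 set than in either WT P3 set. Tdrd5 differed by 0.15 (pairs -0.32 to 0.87) and Asz1 by 0.17 (pairs -0.54 to 0.65).

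Pairing sets by letter, an alternative chosen after seeing the data that leaves out KO P3 set C, gave the same 4 genes higher and Tdrd1 lower, with 17.5% and 7.71% of all genes called. KO P3 set A moved the count of genes called. Without it 6 genes were called higher (Piwil2, Tdrd9, Tdrkh, Mael, Mov10l1 and Gtsf1), where 19.4% of all genes were called higher and 3.51% lower, and 3 on the scale of stably detected genes (Tdrd9, Tdrkh and Mov10l1), where 6.71% were called higher and 8.13% lower, Tdrd1 among the lower. Leaving out cells with a Sertoli marker above 10 RPM gave 6 as well (Piwil2, Tdrd9, Mael, Mov10l1, Asz1 and Gtsf1), with 12.9% of all genes called higher and 3.22% lower. On the other scale Mael and Mov10l1 were then called higher and none lower, with 6.15% and 7.69% of all genes, so Tdrd1 lost its call there. Without KO P3 set B the genes called higher were Tdrd9 and Mael, with 8.59% of all genes called higher and 4.81% lower. The part of cell composition in these differences was not tested beyond these values. In 1 cell of KO P3 set A, 3 of the 10 genes were above 1 RPM, and in every other cell at least 7 were. That cell had 269191 reads on genes, with 1411 RPM of the Sertoli gene Clu, 164 RPM of Sox9, 2.35 RPM of Ddx4 and 1.17 RPM of Mael.

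**Figure D2:**
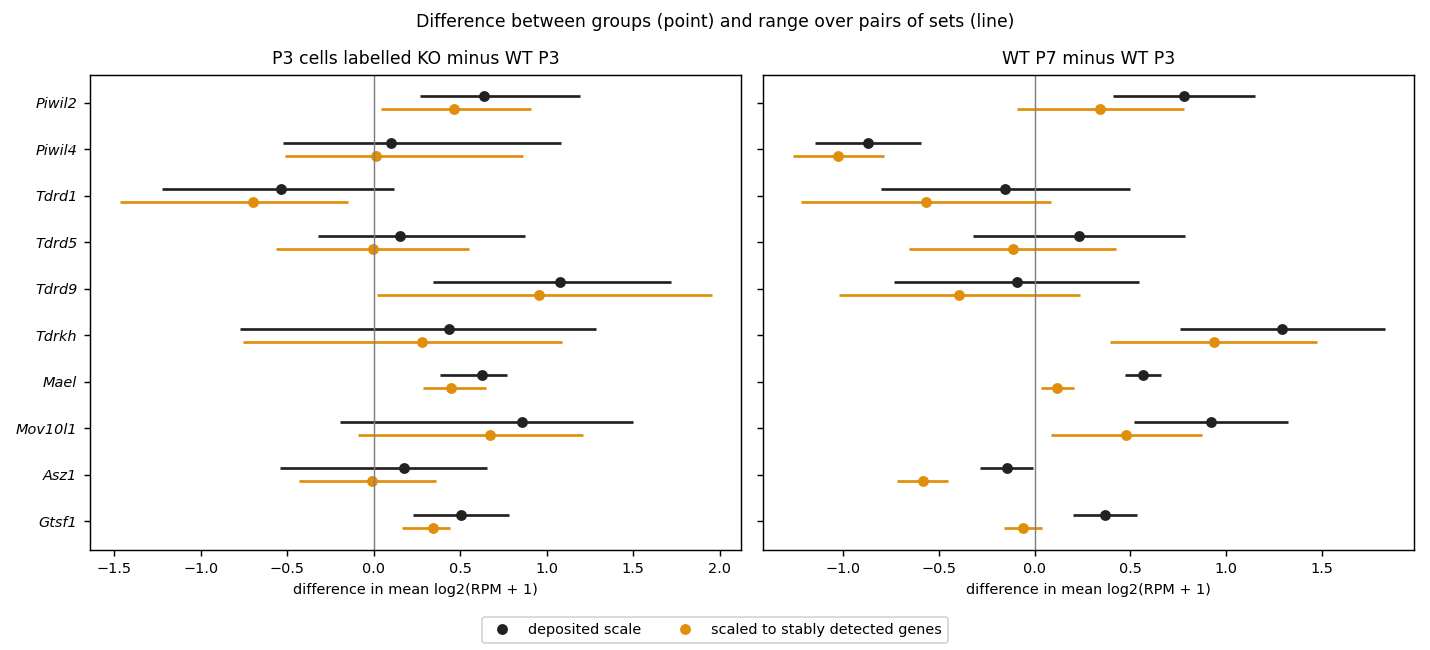
Difference in mean log2(RPM + 1), horizontal axis, of cells labelled KO P3 minus WT P3 (left) and of WT P7 minus WT P3 (right) for each gene. Points are group differences and lines their range over pairs of sets, in black on the deposited scale and in orange on the scale of stably detected genes. The whole lines of Tdrd9, Piwil2, Mael and Gtsf1 at left and of Tdrkh, Mov10l1 and Mael at right lie above 0 on both scales. Those of Piwil4 and Asz1 at right lie below 0 on both.

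On the deposited scale, 4 of the 10 genes (Tdrkh, Mov10l1, Piwil2 and Mael) were called higher in WT P7 than in WT P3 and Piwil4 was called lower. The comparison follows wild-type cells sorted on the same reporter over the first postnatal week. Of 9659 genes measured in this comparison, 21.6% were called higher and 11.1% lower, so 4 of 10 higher stands beside a large share of all genes, and 1 of 10 lower is near it. The deposited table held a mean of 17.5% of a cell's total in WT P7 and 12.7% in WT P3. The median difference of the 10 genes was 0.30, beside 0.10 over all genes. On the scale of stably detected genes Tdrkh was called higher and Piwil4 and Asz1 lower, with 9.12% of genes called higher and 22% lower, which the counts of 1 and 2 are close to. With cells thinned to 50000 reads on genes the same 3 genes were called, Tdrkh higher and Piwil4 and Asz1 lower, where 10.5% of genes were called higher and 21.3% lower. The medians on the scale of stably detected genes were -0.09 for the 10 genes and -0.15 for all genes.

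Tdrkh had the largest difference of the 10. Its level was 4.29 ± 1.80 and 4.78 ± 1.30 in WT P7 sets A and B, against 2.96 ± 1.42 and 3.53 ± 1.23 in sets A and B of WT P3, and both WT P7 sets lay above both WT P3 sets. The difference was 1.29 (pairs 0.76 to 1.83), and mean RPM was 34.2 in WT P7 and 11.9 in WT P3, a ratio of 2.88. It was 1.33 between the sets lettered A and 1.25 between those lettered B, and 0.93 (pairs 0.39 to 1.47) on the scale of stably detected genes. The gene lies at chr3:94413273-94434668, plus strand and shares up to 2255 bases of exon with Oaz3 on the opposite strand. The strand setting of the counting is not given in the sources used here, so reads of the overlap cannot be assigned with certainty. Oaz3 was listed at levels of 0.19 ± 0.66 and 0.36 ± 0.84 in WT P7 sets A and B, against 0.47 ± 0.86 and 0.14 ± 0.42 in sets A and B of WT P3.

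Piwil4 was the gene called lower at day 7 on both scales. Its level was 0.87 ± 1.57 and 1.10 ± 1.52 in WT P7 sets A and B, against 2.02 ± 1.51 and 1.69 ± 1.34 in sets A and B of WT P3, and both WT P7 sets were below both WT P3 sets. The difference was -0.87 (pairs -1.14 to -0.59), with mean RPM of 2.94 in WT P7 and 4.70 in WT P3, a ratio of 0.625. It was -1.14 between the sets lettered A and -0.59 between those lettered B, and -1.02 (pairs -1.26 to -0.78) on the scale of stably detected genes. The share of cells with more than 1 RPM was 56.5% (44% to 68.4%) of the 69 cells labelled KO P3 and 34% (21.5% to 48.3%) of the 53 WT P7 cells (exact 95% interval), against 63.4% (51.1% to 74.5%) of the 71 WT P3 cells. The intervals cover counting error only. Above 10 RPM the order was the other way, with 13.2% of WT P7 cells (7 of 53) and 5.63% of WT P3 cells (4 of 71). With a pseudocount of 10 the difference in level was -0.19, and with a pseudocount of 0.1 it was -2.01, so its size hung on the weight given to cells with few or no reads. With cells thinned to 50000 reads on genes, 22.6% (12.3% to 36.2%) of 53 WT P7 cells had at least 1 read of Piwil4, against 57.6% (44.8% to 69.7%) of 66 WT P3 cells, and the gene was again called lower.

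**Figure D3:**
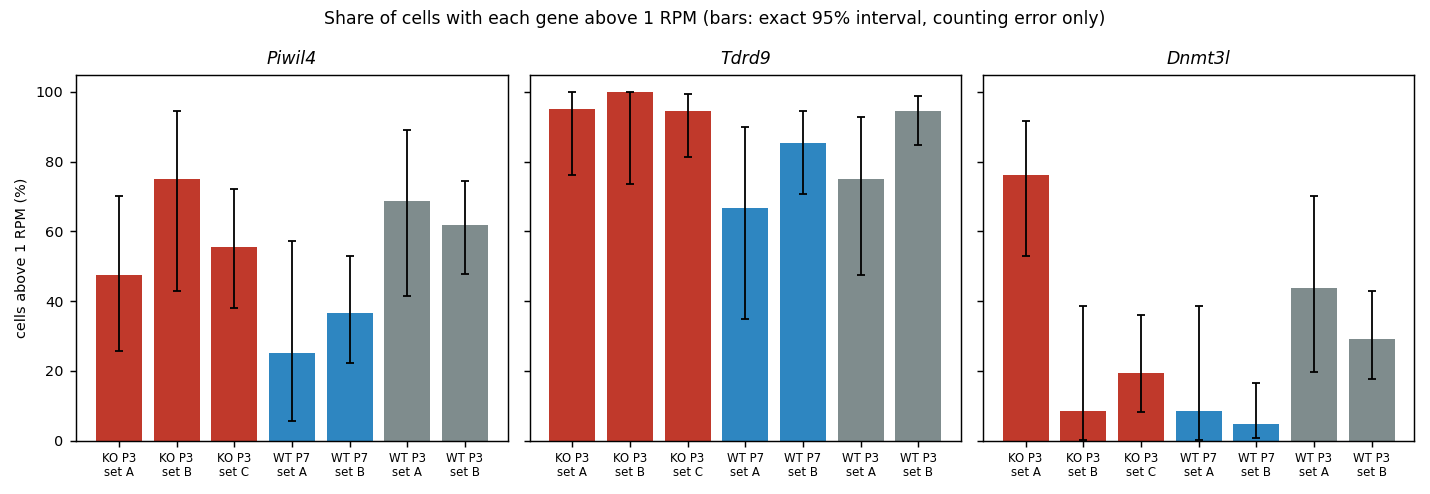
Share of cells above 1 RPM in percent, vertical axis from 0, for Piwil4, Tdrd9 and Dnmt3l in each lettered set, with KO P3 in red, WT P7 in blue and WT P3 in grey. Error bars are exact 95% intervals for counting error only. Piwil4 was above 1 RPM in fewer cells of both WT P7 sets than of both WT P3 sets, and Dnmt3l stands out in KO P3 set A at 76.2%.

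Mov10l1, Piwil2 and Mael were higher at day 7 on the deposited scale. Mov10l1 had levels of 5.48 ± 0.76 and 6.12 ± 0.87 in WT P7 sets A and B, against 4.80 ± 1.01 and 4.96 ± 0.96 in sets A and B of WT P3, a difference of 0.92 (pairs 0.52 to 1.32) with mean RPM of 65.1 in WT P7 and 34.8 in WT P3, a ratio of 1.87. For Piwil2 the levels were 5.83 ± 0.73 and 5.16 ± 1.15 in WT P7 sets A and B, against 4.68 ± 1.03 and 4.75 ± 1.01 in sets A and B of WT P3, and the difference was 0.78 (pairs 0.41 to 1.15). Mael had levels of 6.79 ± 1.00 and 6.91 ± 0.71 in WT P7 sets A and B, against 6.25 ± 0.82 and 6.32 ± 0.59 in sets A and B of WT P3, with a difference of 0.57 (pairs 0.47 to 0.66). In each of the 3 genes the WT P7 sets lay above the WT P3 sets. On the scale of stably detected genes the differences were 0.48 (pairs 0.08 to 0.87), 0.34 (pairs -0.09 to 0.78) and 0.12 (pairs 0.03 to 0.21). All were under the size set for a call, and Piwil2 had pairs on both sides of 0 there.

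Pairing the sets by letter called the same 4 genes higher and Piwil4 lower, with 22.9% and 11.9% of all genes called. Asz1 and Gtsf1 kept 1 sign in all 4 pairs but stayed under that size. Among all genes, 32.9% were above WT P3 in all 4 pairs and 18.7% below on the deposited scale, and 17.7% and 34.5% on that of stably detected genes. Asz1 differed by -0.15 (pairs -0.28 to -0.01), and by -0.58 (pairs -0.72 to -0.45) on the scale of stably detected genes, where it was called lower. Gtsf1 differed by 0.37 (pairs 0.20 to 0.53), and by -0.06 (pairs -0.16 to 0.04) on that scale. Tdrd1, Tdrd5 and Tdrd9 had pairs on both sides of 0. Their differences were -0.15 (pairs -0.80 to 0.50), 0.23 (pairs -0.32 to 0.78) and -0.09 (pairs -0.73 to 0.54). In WT P7 set A a single cell had 128 RPM of Tdrd9, the mean was 16 RPM and the median 2.98 RPM. No WT P7 cell had a Sertoli marker above 10 RPM, and without the WT P3 cells that did, Gtsf1 joined the 4 genes called higher and Piwil4 remained lower, with 22.9% and 10.8% of all genes called in those directions. On the scale of stably detected genes Tdrkh was then called higher and Piwil4 and Tdrd9 lower, with 9.36% and 22.5% of all genes, and Asz1 lost its call.

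Set side by side on the deposited scale, the comparisons with WT P3 gave similar values for Piwil2 (0.64 for KO P3, 0.78 for WT P7), Mael (0.62 and 0.57) and Mov10l1 (0.85 and 0.92). They were less alike on the scale of stably detected genes, at 0.47 and 0.34 for Piwil2, 0.45 and 0.12 for Mael, and 0.67 and 0.48 for Mov10l1. Because both comparisons rest on the same WT P3 cells, a low WT P3 value would raise both, and likeness between them is no separate observation. Tdrd9 was at 1.08 for KO P3 and -0.09 for WT P7 on the deposited scale, and Piwil4 at 0.10 and -0.87. In terms of sets, Tdrd9 in KO P3 (3.37 to 4.21) lay above both WT P7 sets (2.29 and 3.03), and Piwil4 in KO P3 (1.49 to 2.77) lay above both WT P7 sets (0.87 and 1.10). Tdrkh went the other way on the deposited scale, with KO P3 (2.75 to 4.24) narrowly below both WT P7 sets (4.29 and 4.78). Scaled to reads on genes, KO P3 set B (4.16) lay above WT P7 set A (4.13) for Tdrkh. With thinned cells, KO P3 sets B and C (4.32 and 3.91) lay above WT P7 set A (3.82). The Tdrkh sets therefore overlapped on those scales, whereas Tdrd9 and Piwil4 in KO P3 stayed above both WT P7 sets. The share of all genes for which the sets of KO P3 and WT P7 separate was not computed. Age and label both differ between those groups, so their parts cannot be told apart.

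A list of 27 further piRNA pathway genes gave the surroundings, of which 25 had a row in the table. In cells labelled KO P3 against WT P3, 23 were measured, 2 were called higher and 0 lower, with a median difference of 0.18. That is near the 8.92% and 2.85% of all genes called, and the genes named are given as single values. Those called higher were Dnmt3a, a de novo DNA methyltransferase, at 0.72 (pairs 0.19 to 1.20), and Gpat2, a mitochondrial acyltransferase family member needed for primary piRNAs, at 0.72 (pairs 0.24 to 1.24). Ddx25, a germ cell RNA helicase, had the largest difference at 0.92 (pairs -0.14 to 1.83) without a shared sign. Stk31, a Tudor-domain kinase-like gene, and Exd1, an exonuclease-domain partner of TDRD12, were the lowest at -0.58 (pairs -1.30 to 0.12) and -0.53 (pairs -1.36 to 0.14). None was called higher on the scale of stably detected genes, and Stk31 at -0.76 and Rnf17 at -0.51 were called lower. Gpat2 and Rnf17 are named because of their calls, having been picked after their values were seen.

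In WT P7 against WT P3, 22 of these genes were measured, of which 5 were called higher and 3 lower, with a median of -0.08. Those counts are near the 21.6% and 11.1% of all genes called, and the genes below are given as single values. Of 11 measured biogenesis and nuage genes, 5 were called higher on the deposited scale and 2 on that of stably detected genes. Of 6 measured PIWI and Tudor genes of the list, 0 were called higher and 0 lower on the deposited scale, with a median of -0.32. On that of stably detected genes 0 of the 6 were called higher and 3 lower, beside 9.12% and 22% of all genes. Mov10, a paralog of Mov10l1 that is also used outside the germ line, had the largest difference at 1.54 (pairs 1.14 to 1.94), with mean RPM of 22.6 in WT P7 and 5.52 in WT P3, a ratio of 4.09. Prmt5, the arginine methyltransferase whose marks on PIWI proteins are read by Tudor domains, followed at 0.84 (pairs 0.64 to 1.05). The others, picked after their values were seen, were Henmt1 (piRNA 3′ end methyltransferase) at 0.79, Fkbp6 (a co-chaperone) at 0.69 and Gpat2 at 0.54. Those called lower were Btbd18, a nuclear factor of piRNA precursor transcription, at -0.73 (pairs -1.37 to -0.08), Tex15, which acts with PIWIL4 in transposon methylation, at -0.64 (pairs -0.70 to -0.58), and Dnmt3l, the cofactor of de novo methyltransferases, at -0.60 (pairs -0.88 to -0.33). Of these genes, 2 were called higher and 7 lower on the scale of stably detected genes. Ddx4, the helicase that marks nuage, differed by 0.02 (pairs -0.05 to 0.08).

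Dnmt3l, also named after its values were seen, had levels of 3.01 ± 2.09, 0.56 ± 1.17 and 0.50 ± 1.06 in KO P3 sets A, B and C, against 1.02 ± 1.39 and 0.64 ± 0.97 in sets A and B of WT P3. It was above 1 RPM in 76.2% (52.8% to 91.8%) of cells in KO P3 set A, the set with the lowest mean level of markers of undifferentiated spermatogonia, and in 8.33% (0.211% to 38.5%) and 19.4% (8.19% to 36%) of cells in sets B and C, against 43.8% (19.8% to 70.1%) and 29.1% (17.6% to 42.9%) in sets A and B of WT P3. Tdrd9 was likewise highest in KO P3 set A, whereas Piwil4 in that set was below both WT P3 sets. Within KO P3 set A, 8 of 21 cells had both Piwil4 and Dnmt3l above 1 RPM, 2 had Piwil4 without Dnmt3l, 8 had Dnmt3l without Piwil4, and 3 had neither.

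Most single cells held RNA of nearly the whole set of genes. The number of the 10 genes above 1 RPM had a median of 9 per cell, and 84 cells had all 10. By group, all 10 were above 1 RPM in 31 of 69 cells labelled KO P3, 15 of 53 WT P7 cells and 38 of 71 WT P3 cells. Piwil4 was the gene most often missing, at 52.8% of all cells above 1 RPM, followed by Tdrd5 at 87.6% and Tdrd9 at 89.6%. These shares depend on depth and are not corrected for it.

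Variation between cells was set beside that of ERCC spike-in RNA, which was added at lysis. On the RPM scale a spike-in also varies with the other RNA of a cell, so the comparison is a description. For each gene and set, spike-ins with a mean RPM within a 2-fold range served as reference. The median ratio of a gene's coefficient of variation to that of the spike-ins ran from 0.89 for Gtsf1 to 1.32 for Tdrd1. Piwil4 exceeded the median of its spike-ins in 7 of 7 sets, with a ratio of 1.14 to 1.99, but exceeded all of them in 0 sets. Tdrd1 exceeded all of its spike-ins in 3 of 7 sets. Piwil4 had 10 to 15 spike-ins per set as reference and Tdrd1 had 4 to 9. Exceeding all is harder where they are more, so these counts do not compare the genes. In KO P3 set A, 5 genes did so (Piwil2, Tdrd1, Tdrd5, Mov10l1 and Asz1), whereas in KO P3 set C and WT P7 set B no gene did.

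**Figure D4:**
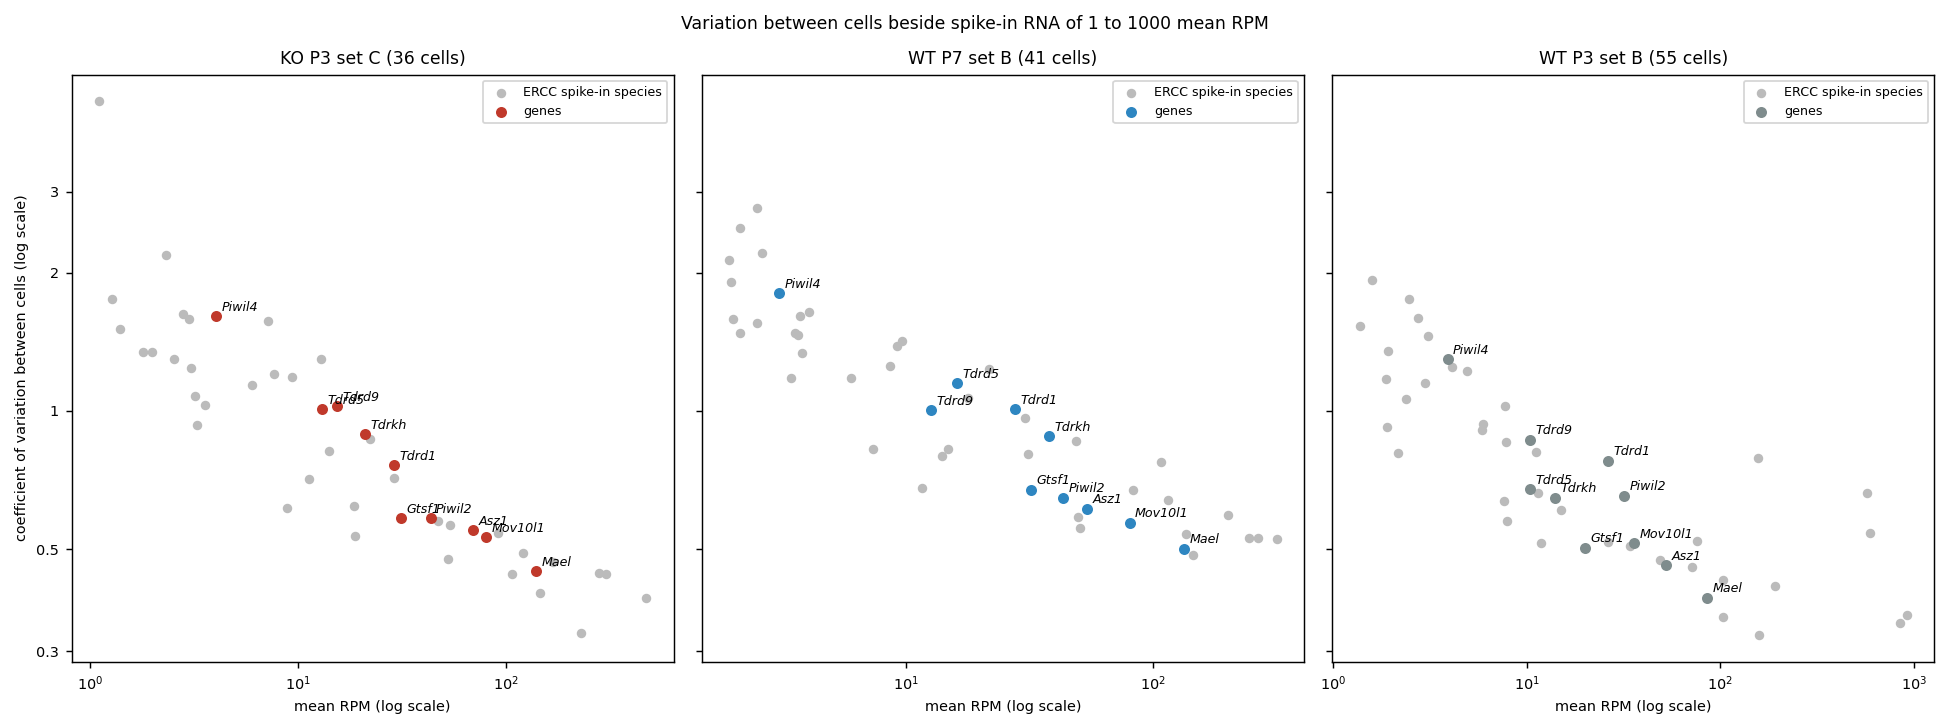
Coefficient of variation between cells, vertical log axis, against mean RPM, horizontal log axis, in the set with most cells of each group. Grey points are ERCC spike-in species, and coloured, named points are the 10 genes (dark grey in WT P3). The genes run along the spike-ins, with Piwil4 at the top left and Mael at the lower right, and Tdrd1 in WT P3 set B lies above its neighbours.

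Across cells the genes varied together only weakly. After centring on the set means, the 45 pairs of genes had a median Pearson r of 0.12 over all cells of the 3 groups (lowest -0.03, highest 0.48), and 43 pairs lay above 0. All pairs among the 4943 genes whose mean level reached 2 had a median of 0.043. The highest were Mael with Gtsf1 at 0.48, Piwil2 with Mael at 0.34 and Mael with Asz1 at 0.29. All correlations keep the KO P3 set A cell with 1411 RPM of Clu. That cell had 1.17 RPM each of Mael and Asz1 and 0.587 RPM each of Piwil2 and Gtsf1. Its part in the correlations was not tested. Within groups the median was 0.20 in cells labelled KO P3, 0.01 in WT P7 and 0.15 in WT P3, and within the largest sets it was 0.02, -0.01 and 0.18 in KO P3 set C, WT P7 set B and WT P3 set B. Cells of a set share library preparation, and each cell's genes share its depth, so these values are given as a description. The gene pair Tdrd9 and Piwil4, whose proteins work together, had r = 0.12 over all cells. By set it was 0.15, -0.09 and -0.14 in KO P3 sets A, B and C, -0.02 and 0.48 in WT P7 sets A and B, and -0.04 and 0.10 in sets A and B of WT P3.

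**Figure D5:**
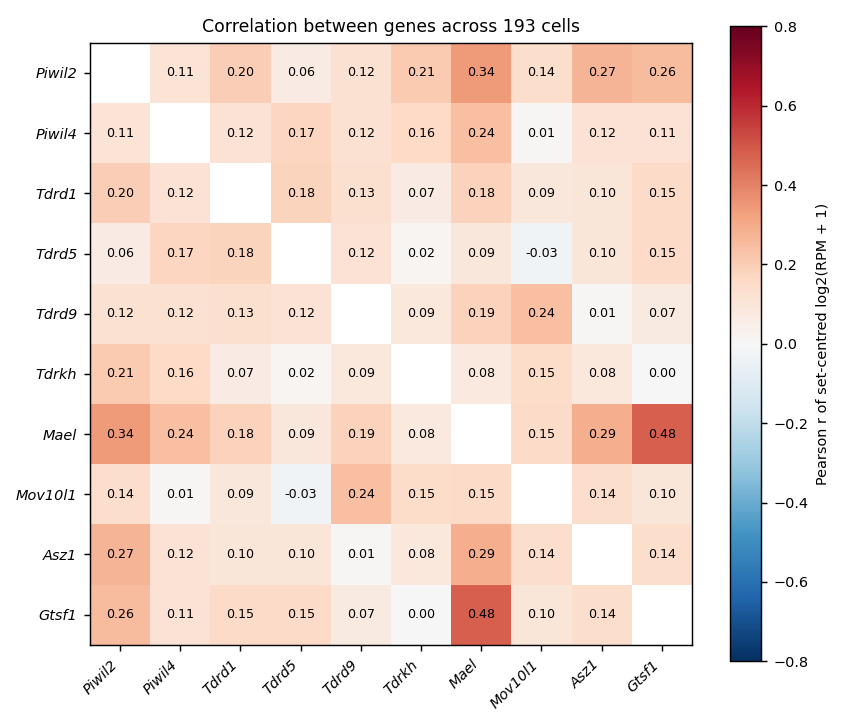
Pearson correlation between each pair of the 10 genes across all cells of the 3 groups, from log2(RPM + 1) centred on the mean of each lettered set. Colours run from blue (negative) to red (positive), and the number in each square is r. Mael with Gtsf1 is highest at 0.48, and 43 of the 45 pairs lie above 0.

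The genes most like the 10, by correlation with the mean of their centred levels over all cells of the 3 groups, were Rpl4 (r = 0.56), Rpl8 (0.52), Ndufs7 (0.52), Ddx4 (0.50), Cecr2 (0.49), Fkbp6 (0.49), Afp (0.49) and Rpsa (0.49). Of these 8, Ddx4 and Fkbp6 are piRNA pathway genes, and Rpl4, Rpl8 and Rpsa encode ribosomal proteins. Among the other pathway genes, Ddx25 and Rnf17 followed at 0.35 each, Morc1 at 0.32 and Stk31 at 0.31, and Pld6 was lowest at 0.01. The KO P3 set A cell that was low in most of the 10 genes was kept in these correlations, and its part in them was not tested.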

How the data were processed

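Per the labels' protocols, cells were captured on the Fluidigm C1, lysed with ERCC spike-ins, amplified with SMARTer reagents and made into Nextera XT libraries. STAR 2.3.0, HTSeq 0.6.1 and mm10 are named in the submitters' processing notes. Neither the authors' annotation nor their strand setting is known here. Although named as TPM, the deposited values are RPM. Within a cell nearly all deposited RPM values were multiples of 1 step: 99.96% of values above 0 came out as whole reads on average and 94.5% in the lowest cell (tolerance 0.001 RPM). The table summed to 8.13% to 23.0% of the total per cell; the remainder is not described. The plan had assumed TPM, and its measures were applied to RPM unchanged.

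Levels, differences and calls were computed with pandas 2.3.3, numpy 2.4.6 and scipy 1.17.1, figures with matplotlib 3.10.9. Genes counted as measured at a mean level of at least 0.5. The scale of stably detected genes divides each cell by its median ratio over genes above 1 RPM in at least 90% of cells. PCR reads without molecular identifiers are not independent molecules. Spread between cells is not spread between animals, so no p-value was computed and no count test was run on the recovered reads. All cells were kept and doublets were not called. Steps were tested on simulated cells whose planted changes were larger than any difference of the 10 genes, with none planted between sets of a group. The test therefore does not cover calls of the size given here. All 10 genes are named. Of the 27 other pathway genes the rule names the 2 highest and 2 lowest differences per comparison, and then the 8 genes most like the 10. The members and lists were chosen with earlier results of these data known. Henmt1 and Btbd18 were matched through RefSeq synonyms, 2 genes of the list are not used here, and coordinates are from GENCODE on the same build. Of the marker lists, germ cell markers, with Mael among them, summed to a mean of 1017 to 1608 RPM per set. Dppa3 of that list averaged 0.41, 0.10 and 0.04 RPM in KO P3, WT P3 and WT P7. Markers of leukocytes, erythroid, endothelial, Leydig and myoid or stromal cells summed to at most 15.8 RPM. Only 2 of 4 Leydig and 1 of 4 erythroid markers had a row, so those sums cover a part of their lists. Sertoli markers summed to 0 to 116 RPM.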

Additional observations from a re-analysis of the deposited data

How the results depend on the processing

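The counts of genes called depended on the scale. In cells labelled KO P3 against WT P3, the number of the 10 genes called higher was 4, but 1 when scaled to reads on genes or to stably detected genes, 0 when thinned to 50000 reads, 1 with a difference of at least 1, and 2 to 6 when a set was left out. The number called lower was 0, but 1 when scaled to reads on genes, to stably detected genes or thinned, and 0 to 1 when a set was left out. In WT P7 against WT P3, the number higher was 4, but 1 on each of those 3 scales and 1 with a difference of at least 1. The number lower was 1, but 2 on each of those 3 scales and 2 with no minimum size, 0 with a pseudocount of 10 or a difference of at least 1, and 1 to 2 when a set was left out. With no floor on the mean level, 4.77% of genes were higher and 1.5% lower for KO P3, and 10.8% and 6.29% for WT P7; with a floor of 2, which 9 of the 10 genes pass, 10.9% and 2.82%, and 30.9% and 8.19%. Beyond the number of genes tested, the cause of these shifts was not tested. Genes called on the deposited scale kept their sign under each alternative run. For WT P7, Asz1 and Tdrd9, called lower on other scales only, did not: Asz1 reached 0.06 without Sertoli-marker cells, and Tdrd9 0.60 with RPM averaged before the logarithm. The median correlation between genes was 0.14 without centring, 0.10 with depth regressed out and 0.077 on stably detected genes. Thinning left 69 KO P3, 53 WT P7 and 66 WT P3 cells. With the set letter as a replicate block, chosen after seeing the data, 4 genes were called higher and 1 lower for KO P3 (Tdrd1, at -0.73), and 4 and 1 for WT P7; the labels do not say that a letter marks a shared run, and each group remains 1 sample.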
